A study of Rattus norvegicus with 4 samples.

Results

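The cytosolic ribosomal protein genes encode the protein part of the ribosomes that translate nuclear-encoded mRNAs. They were chosen by symbol alone: known genes with a numeric gene identifier named Rpl or Rps followed by a number, the stalk genes Rplp0 to Rplp2, Rpsa and Fau. The rule gave 83 of 14008 known genes, 49 of the large and 34 of the small subunit. They were measured in the frontal (prefrontal) cortex of rat pups at postnatal day 1, of the stock that the labels call Wistar and the methods Wistar Furth. The dams received bisphenol A (BPA), a plasticiser with oestrogen-like activity, at 5000 µg per kg of maternal body weight in ethanol and corn oil, or the same vehicle alone, daily by gavage from gestational day 1 until birth. There were 4 libraries, 1 for each sex and treatment, called here by both (control male, BPA female and so on). Values are given in the order male control, male BPA, female control, female BPA. The study took 3 pups of each kind out of 6 litters, and its methods leave unsaid whether these were pooled for sequencing. A male or female pair therefore compares 1 library with 1 library and has no test. Treatments were compared across the 2 libraries of each, with the sexes as replicates, so the spread includes any sex difference and a p-value measures only the spread between these libraries.

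Each ribosome has a large subunit, which forms the peptide bonds, and a small subunit, which reads the mRNA. Most of their proteins are needed in a single copy per ribosome, and their short, abundant mRNAs are usually made in balance. Many of these mRNAs begin with a cytosine followed by an unbroken run of pyrimidines, the terminal oligopyrimidine (TOP) motif, through which mTOR signalling and the protein Larp1 set their translation and stability. In the newborn cortex, ribosome production serves the growth of neurons and their processes.

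The letters around the annotated gene start show the feature that many members share and the selection rule did not use. RefSeq promoter sequences for rat (build GRCr8, which differs from the rn6 build of the deposited data) were matched by gene identifier for 65 of the 83 members. The window read was 30 bases long, 15 before the annotated start and 15 from it, on the strand of the gene. Windows are shown for highly abundant members, for members with a short run, and for a parent and paralog, with the longest unbroken run of C or T in capitals.

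Rps2: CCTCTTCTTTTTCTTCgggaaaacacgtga
Rplp1: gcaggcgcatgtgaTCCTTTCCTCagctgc
Rplp0: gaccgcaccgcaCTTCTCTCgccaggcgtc
Rps7: tcgcgagagctgtgTCTCTTTCTaagccgg
Rps18: cacgtcacttccgCTCTCTCTTCCacagga
Rpl31: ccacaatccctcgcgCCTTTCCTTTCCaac
Rps27: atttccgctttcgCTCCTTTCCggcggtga
Rps27l: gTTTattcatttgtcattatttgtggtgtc
Rpl22l1: gCTCCgtggatatccggttccgagttgcgc
Rpl41: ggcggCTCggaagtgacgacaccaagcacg
Rpl26: CTCgtgtcaacttacagaaccggaagtcgc

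The windows lie at chr10:14251833-14251862 on the plus strand for Rps2, chr8:71290858-71290887 on the minus strand for Rplp1, chr12:46718376-46718405 on the minus strand for Rplp0 and chr6:50999431-50999460 on the minus strand for Rps7. Rps18 is at chr20:4933730-4933759 and Rpl31 at chr9:49143096-49143125, both on the plus strand, and Rps27 is at chr2:177964592-177964621 on the minus strand. Rps27l is at chr8:76443643-76443672, Rpl22l1 at chr2:113683181-113683210 and Rpl26 at chr10:54109677-54109706, all on the plus strand, and Rpl41 is at chr7:1563483-1563512 on the minus strand. Each window joins the promoter to the first bases of the first exon as RefSeq annotates it. The longest run was 16 bases in Rps2, 12 in Rpl31, 11 in Rps18, 10 in Rplp1, 9 in both Rps7 and Rps27, and 8 in Rplp0. It was 4 in Rpl22l1 and 3 in each of Rps27l, Rpl41 and Rpl26. Rpl41, the most abundant member, therefore had no long run in this window.

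A run of at least 8 pyrimidines was present in 41 of the 65 members (63.1%) and in 11.4% of the 27457 genes of the table. A run of at least 10 was present in 47.7% of the members and 4.97% of all genes. The annotated first base was C with C or T at each of the next 4 bases in 21 members (32.3%), against 2.63% of all genes, and this count depends on the start chosen by the annotation. In the whole 300 bases of the table, CCGGAA on either strand, the core of ETS-family sites, was present in 49.2% of the members, in 15.8% of all genes and in 24.5% of the known genes of the data. AAGATGG on either strand, the core of YY1 sites, was present in 13.8% of the members, in 7.3% of all genes and in 7.74% of the known genes. TATAAA on either strand was present in 12.3% of the members, in 14.3% of all genes and in 8.48% of the known genes of the data. Each motif was searched by itself, so matches of different motifs may overlap, and a match is a description of the letters only. Among the members tested, the 40 with a run of at least 8 had a median log2 ratio of BPA to control of 0.14 in the male pair and 0.04 in the female pair, and the 22 with a shorter run had 0.11 and 0.02.

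Levels are given as FPKM, the fragments per kilobase of transcript scaled to the mapped fragments of the library, a level per length that lets genes be compared. Each library listed 82 of the 83 members. Rps14, a protein of the small subunit platform, was listed only in the male libraries, and Rpl3l, a paralog of Rpl3 known from striated muscle, only in the female libraries. Of the 83, 68 were at 100 FPKM or more in every library, 45 had a mean of at least 500, and 14 had a mean under 100. Members made up 46 of the 100 most abundant known genes. Their median transcript length was 600 bases, against 2355 for known genes, and ranged from 318 to 1958.

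Rpl41, which encodes the smallest ribosomal protein, had the highest mean, with 1370 (control) and 1376 FPKM (BPA) in males, and 1219 and 1246 FPKM in females. The male libraries were higher than the female ones, and the treatments overlapped. Rps29, a zinc-binding protein of the small subunit, followed with 1153 (control) and 1365 FPKM (BPA) in males, and 1157 and 1291 FPKM in females. Both BPA libraries were above both control libraries for Rps29, and the 2 controls were nearly equal. Rps2, which lies near the mRNA entry channel, had 1060, 1182, 1048 and 1090 FPKM in the same order of libraries, and its groups did not overlap either. Rpsa, also known as the laminin receptor precursor, had 1005, 1086, 935 and 970 FPKM, with overlapping groups.

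Rpl32, a large subunit protein, had 990 (control) and 1103 FPKM (BPA) in males, and 896 and 953 FPKM in females. Rps7, a small subunit protein, had 1000, 1069, 915 and 957 FPKM in that order. Both followed the same pattern, with BPA male highest, control female lowest and the groups overlapping. Spearman's rho between libraries over the 80 tested members was 0.991 to 0.995, a description of one shared ranking, since the libraries share gene lengths and annotation.

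**Figure D1:**
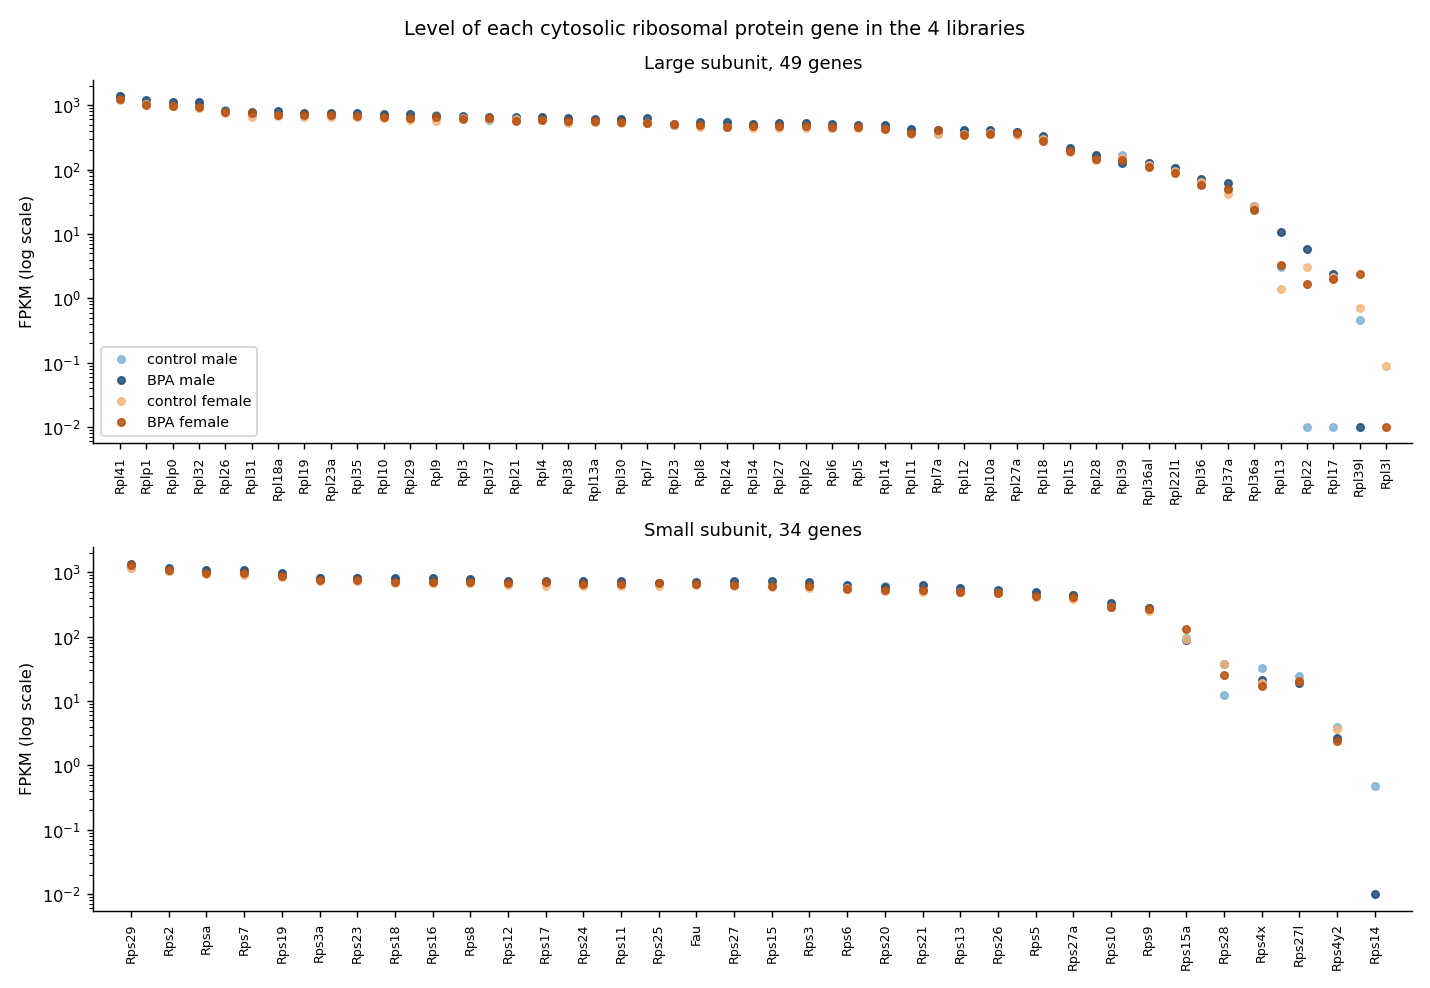
FPKM on a log axis of each of the 83 cytosolic ribosomal protein genes, large subunit above and small subunit below, ordered by mean level, with 1 point per library. Most genes form a plateau between 100 and 1376 FPKM on which the 4 libraries nearly coincide, and the short tail at the right, down to the lowest listed value of 0.01, scatters far more.

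The summed FPKM of the members was 42179 (control) and 45569 (BPA) in males, and 39515 and 40999 in females. These sums were 9.68%, 10.3%, 9.27% and 9.59% of the total FPKM of the libraries. BPA was above control within each sex, by 8.04% in the male pair and 3.75% in the female pair, but control male lay above BPA female and the treatments overlapped. Male and female libraries differed by as much: from male to female the sum changed by -6.32% between the controls and by -10.03% between the BPA libraries. With 2 libraries against 2, an exact two-sided permutation test cannot give a p below 0.333, so the sums were described without a test. In whole tissue, a different number of cells rich in these mRNAs and a different amount of the mRNAs per cell cannot be told apart.

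The large subunit summed to 22930, 24685, 21541 and 22207 FPKM, with the male control and BPA libraries first and the female ones after. The small subunit summed to 19249, 20884, 17974 and 18792 FPKM in the same order. The ratio of the subunits was thus almost constant, at 1.19, 1.18, 1.20 and 1.18. The median level was higher for the small subunit than for the large in every library, with 640 against 490 FPKM in control male and 634 against 475 in BPA female.

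**Figure D2:**
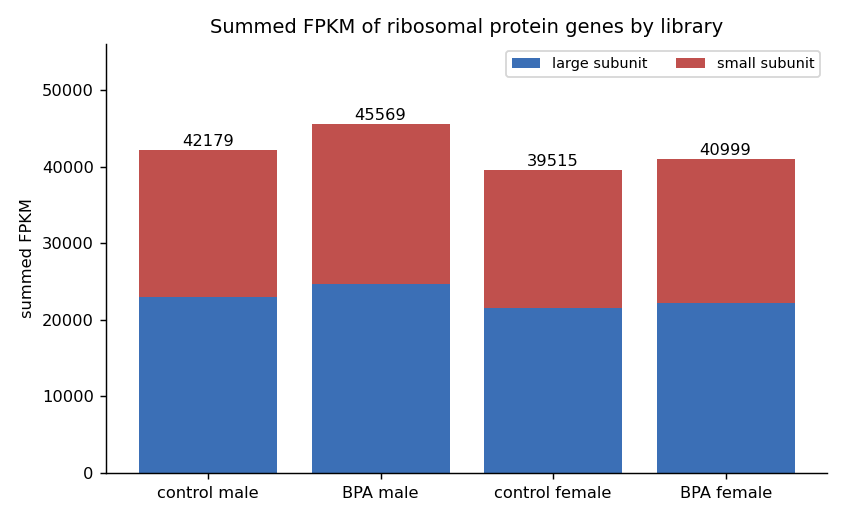
Summed FPKM of all members in each library, split into the large (blue) and small (red) subunit, with the sum printed on each bar. BPA male was highest at 45569 and control female lowest at 39515, and the split between subunits hardly moved.

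To compare BPA with control within each sex, the log2 ratio of FPKM plus 0.5 was taken for the 80 members, 47 large and 33 small, that were listed in all 4 libraries with a mean of at least 1 FPKM. The median was 0.12 in the male pair (quartiles 0.06 and 0.16) and 0.04 in the female pair (quartiles -0.01 and 0.08), while the 10632 known genes had medians of -0.04 and -0.05. The ratio was above 0 for 69 of 80 members in the male pair, where 43.6% of all 13163 transcripts tested were above 0. It was above 0 for 59 of 80 in the female pair, where 42.0% of all transcripts were. In both pairs at once it was above 0 for 53 members, or 66.2%, against 25.9% of all transcripts. It was below 0 in both for 5 members, against 40.1%, and of opposite sign for 22, or 27.5%, against 33.5%. These members share libraries, so their common direction is a single observation per pair and not 80.

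Differences were small for most members. In the male pair 12 members, or 15%, had a log2 ratio of 0.2 or more, near the 15.7% of all transcripts, and in the female pair 3 members, or 3.75%, against 13.7%. A ratio of -0.2 or lower was reached by 4 members in the male pair and 3 in the female pair, against 26.3% and 28.9% of all transcripts. A log2 ratio of at least 1 was seen for 4 members in the male pair (1.19% of all transcripts) and for 1 in the female pair (also 1.19%), all of them members with a mean under 100 FPKM and 2 of them (Rpl17 and Rpl22) listed at 0.01 in control male. A ratio of -1 or lower was seen for 0 members in either pair (1.88% and 2.9%). Among the 69 members with a mean of at least 100 FPKM, the SD of the log2 ratio was 0.10 in the male pair and 0.09 in the female pair. Over all 80 members tested, the scarce ones included, the SDs were 0.55 and 0.19, against 0.29 and 0.33 over the known genes.

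The subunits were close to each other. In the male pair the median log2 ratio was 0.13 for the large and 0.11 for the small subunit, a difference of 0.02, and in the female pair it was 0.04 and 0.06, a difference of -0.02. The sign of the difference changed between the pairs, and it was not tested. Ratios above 0 were found for 42 of 47 large and 27 of 33 small members in the male pair, and for 32 and 27 in the female pair. The male ratio exceeded the female ratio for 59 of 80 members, where 52.0% of all transcripts did so.

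**Figure D3:**
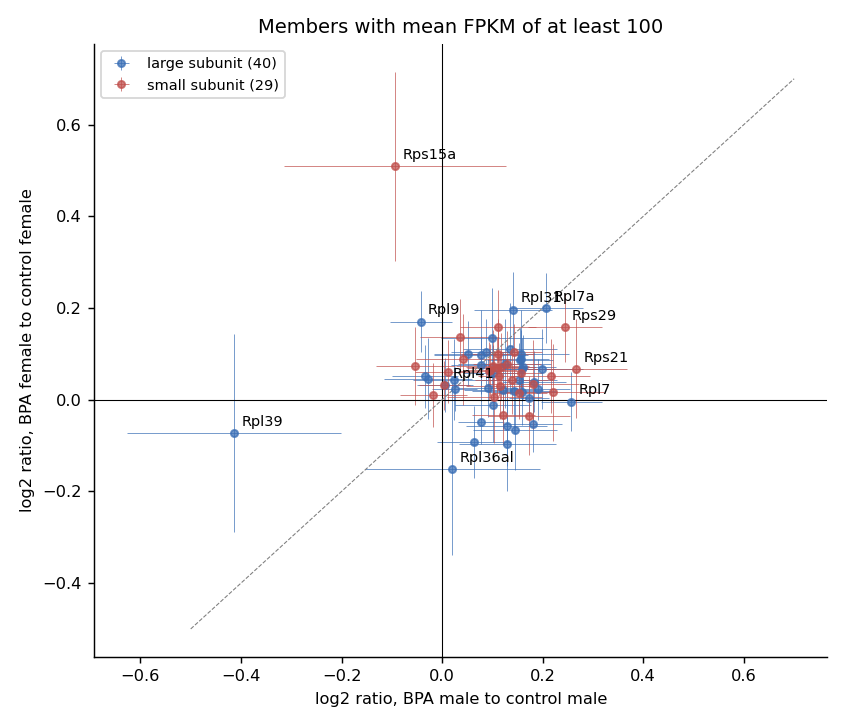
Log2 ratio of BPA to control in the male pair (x axis) and the female pair (y axis) for the 69 members with a mean of at least 100 FPKM, coloured by subunit, with bars of the 95% counting interval and a dashed line of equal ratios. Most points lie above 0 on both axes and below the line, both colours mix, and Rps15a and Rpl39 stand apart.

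The order from high to low was male BPA, male control, female BPA, female control for 40 of the 80 members, where 4.3% of all transcripts showed it. Male libraries were above female ones within each treatment for nearly all members. Control female was above control male for 9 of 80, against 49.9% of all transcripts, with a median log2 ratio of -0.09, with 3 members at 0.2 or more (16.7% of all transcripts) and 6 at -0.2 or lower (13.1%). BPA female was above BPA male for 4 of 80, against 46.8%, with a median of -0.16, with 1 member at 0.2 or more (14.4%) and 28 at -0.2 or lower (18.5% of all transcripts). Each of these again compares 1 library with 1, and sex cannot be told apart from the library.

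In the fit across all transcripts (limma, Benjamini-Hochberg adjustment over 13163), 0 of 80 members passed an adjusted p of 0.05, where 74 transcripts, or 0.562%, passed. At an unadjusted p under 0.05 there were 6 of 80 members, 4 higher and 2 lower with BPA, or 7.5% against 17.3% of all transcripts (5.31% of all transcripts were higher at that p). The higher 4 were Rpl7a, Rps29, Rpl31 and Rpl13, and the lower 2 were Rps4y2 and Rpl39. Both BPA libraries lay above both controls for 13 members, or 16.2%, against 18.7% of all transcripts, and below both for 3 members, or 3.75%, against 31.9%. The count of 6 moved with the libraries left out and with the model, and was 24 with sex as a block. The share of all transcripts at that p was not taken for the block, so the 24 cannot be set beside 17.3%. With the block, still 0 members passed the adjusted threshold, and with the block and known genes only, a fit chosen after seeing the data, 6 of 80 passed (Rpl37a, Rps4x, Rps29, Rpl7a, Rpl31 and Rpl13), beside 876 of 10632 known genes. The median fitted log2 ratio of the members was 0.08, and it was 0.012 without BPA male, 0.035 without control female, 0.13 without control male and 0.17 without BPA female, so its size rested on single libraries.

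Rpl7a, a large subunit protein on the solvent side, had the smallest p. It had 361 (control) and 416 FPKM (BPA) in males, and 353 and 405 FPKM in females. The BPA libraries were above the controls without overlap, and the log2 ratio was 0.20 ± 0.056 (SE, n = 2 libraries against 2, limma, adjusted p = 0.175). Another entry annotated with L7a exists, and summed with it the values were 498, 573, 482 and 522 FPKM, still without overlap, with log2 ratios of 0.20 in the male and 0.12 in the female pair in place of 0.21 and 0.20. Rps29, with its values above, had a log2 ratio of 0.20 ± 0.069 (SE, limma, adjusted p = 0.227). Rpl31, a protein near the exit of the peptide tunnel, had 719 (control) and 793 FPKM (BPA) in males, and 667 and 764 FPKM in females. Its groups did not overlap, and its log2 ratio was 0.17 ± 0.069 (SE, limma, adjusted p = 0.283).

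Rpl39, which lines the peptide tunnel, went the other way from most of the group. It had 170 (control) and 128 FPKM (BPA) in males, and 150 and 142 FPKM in females. Both BPA libraries were below both controls, mostly through BPA male, with a log2 ratio of -0.24 ± 0.087 (SE, limma, adjusted p = 0.24). Rps15a, a small subunit protein, had 95.02, 89.03, 91.77 and 130.81 FPKM, so that BPA female alone stood above the other libraries. Its log2 ratio was 0.21 ± 0.167 (SE, limma, adjusted p = 0.56).

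The stalk proteins Rplp0, Rplp1 and Rplp2 recruit the elongation factors to the large subunit. Rplp0 had 1003 (control) and 1130 FPKM (BPA) in males, and 982 and 985 FPKM in females. Rplp1 had 1046, 1185, 1062 and 1023 FPKM in that order, and Rplp2 had 480, 527, 438 and 473. All 3 were highest in BPA male, only Rplp1 was lower in BPA female than in control female, and the treatments overlapped for each. Rplp2 was thus at less than either of the other two in every library. Limma gave log2 ratios of 0.09, 0.06 and 0.12 with adjusted p of 0.629, 0.745 and 0.465.

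Rpl5 and Rpl11 bind the 5S rRNA and, when ribosome assembly stalls, inhibit Mdm2. Rpl5 had 458 (control) and 488 FPKM (BPA) in males, and 444 and 452 FPKM in females. Rpl11 had 395, 430, 361 and 366 FPKM in the same order. BPA was above control in each sex for both, with overlap between treatments, and the limma adjusted p were 0.685 and 0.73. Rps19, a small subunit protein needed for rRNA processing, had 913, 986, 841 and 882 FPKM and an adjusted p of 0.614 by limma.

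Rps27a and Fau are made as fusions with ubiquitin or a ubiquitin-like domain. Rps27a had 443 (control) and 447 FPKM (BPA) in males, and 390 and 407 FPKM in females. Fau had 650, 716, 626 and 646 FPKM in that order. Both were highest in BPA male and lowest in control female, with overlapping treatments and log2 ratios of 0.04 and 0.09 (limma, adjusted p of 0.854 and 0.562).

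Most paralogs were listed far below their parent genes. Rps27 had 636 (control) and 722 FPKM (BPA) in males, and 620 and 634 FPKM in females, while Rps27l, a p53-responsive paralog, had 24.4, 19.3, 20.5 and 20.4. For Rps27l the BPA libraries were just below the controls, with a log2 ratio of -0.17 ± 0.102 (SE, limma, adjusted p = 0.43). Rpl39l, known mainly from testis, was at 0.46, 0.01, 0.71 and 2.36 FPKM, too low for the fit, and Rpl3l was at 0.09 in control female and listed at 0.01 in BPA female. Its parent Rpl3, at the peptidyl transferase centre, had 637, 672, 627 and 605 FPKM in the 4 libraries. Rps4y2, a paralog of Rps4x, had 3.96, 2.62, 3.71 and 2.41 FPKM, lower with BPA in both sexes, with a log2 ratio of -0.52 ± 0.171 (SE, limma, adjusted p = 0.215) on 19.0 to 32.0 recovered fragments. Rpl22l1, the paralog of Rpl22, had 107, 106, 95.1 and 87.4 FPKM, and Rpl36al, the paralog of Rpl36a, had 126, 128, 120 and 108. As listed, these last paralogs exceeded their parents: Rpl36a had 24.6, 27.2, 26.9 and 23.5 FPKM, and Rpl22 was lower still.

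Several core members stood at low or uneven levels under their own gene identifier. Rpl22 was listed at 0.01 FPKM in control male, had 5.82 FPKM in its BPA counterpart, and had 3.08 (control) and 1.67 FPKM (BPA) in females. Rpl17 was likewise listed at 0.01 in control male and had 2.34, 2.16 and 2.01 in the others, and Rps14 had 0.48 in control male and was listed at 0.01 in BPA male. Rpl13 had 3.10, 10.5, 1.38 and 3.30 FPKM, and Rps28 had 12.5, 37.6, 38.1 and 25.3. The Rpl13 values gave the log2 ratio of greatest size among members with a p under 0.05, 1.32 ± 0.539 (SE, limma, adjusted p = 0.287), on 8.18 to 64.2 recovered fragments. Rps4x, which encodes the common form of S4, had 32.9, 21.1, 19.2 and 17.1 FPKM with a log2 ratio of -0.40 ± 0.243 (SE, limma, adjusted p = 0.436).

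The deposited tables also hold 64 transcripts assembled by the authors without a gene identifier whose description names the protein of a member. To these were added 3 other known entries picked by symbol, and further known entries were not searched by description. These 67 entries belong to 44 of the members' proteins, and the grouping rests on the authors' descriptions, some taken from other species. For 9 members, Rpl13, Rps14, Rps28, Rpl17, Rpl22, Rpl36a, Rps4x, Rps15a and Rpl37a, most of the FPKM lay in these other entries. Near-identical copies and processed pseudogenes are numerous for this family, so how fragments were divided between entries is uncertain.

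Summing the entries of each protein brought 8 of these 9 above 100 FPKM in every library. The S28 protein then had 417 (control) and 464 FPKM (BPA) in males, and 406 and 391 FPKM in females. Its log2 ratios of 1.55 in the male and -0.58 in the female pair for Rps28 alone became 0.15 and -0.06. The L13 protein had 579, 671, 550 and 562 FPKM, with ratios of 0.21 and 0.03 in place of 1.62 and 1.02 for Rpl13 alone. The S4 protein had 709, 774, 676 and 658 FPKM, with ratios of 0.13 and -0.04 in place of -0.63 and -0.17 for Rps4x. S15a had 776, 831, 722 and 757 FPKM, with ratios of 0.10 and 0.07, so that BPA female no longer stood apart. L37a had 879, 951, 789 and 828 FPKM, S14 had 427, 452, 422 and 410, L36a had 418, 469, 382 and 427, and L22 had 106, 120, 105 and 118. L22 was then just below Rpl22l1 in control male and above it in the other libraries, and L36a was higher than Rpl36al in every library, while L17 remained at 5.14, 7.86, 5.55 and 11.4 FPKM.

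Over all proteins the other entries held 11.5 to 11.7% of the combined FPKM, and the combined sums were 47785, 51590, 44663 and 46327. The number of proteins with a mean under 100 FPKM went from 14 to 7. The median log2 ratio was 0.11 in the male pair and 0.05 in the female pair, close to the medians of the members alone. Ratios of large size remained in the sums for L17, at 0.57 and 0.98, and for scarce paralogs without other entries, Rps4y2 at -0.52 and -0.53 and Rpl39l at 1.24 in the female pair (in the male pair it was listed at 0.01 with BPA).

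**Figure D4:**
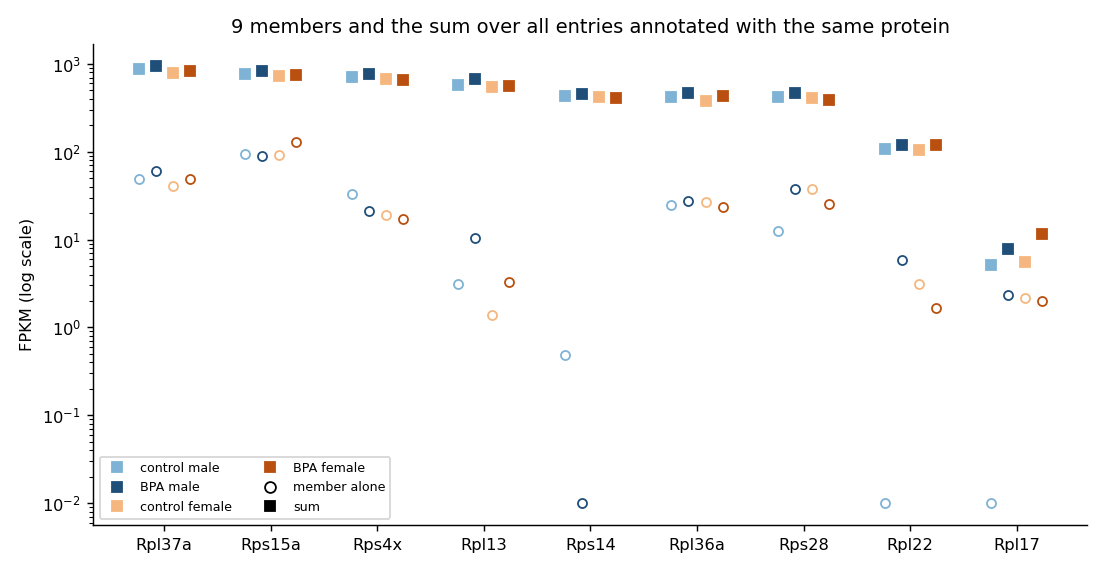
FPKM on a log axis of the 9 members whose protein was mostly counted in other entries (open circles, the member alone) and of the sum over all entries annotated with the same protein (filled squares), 1 colour per library. The sums of 8 of the 9 lie above 100 FPKM in every library and differ little between libraries, where the members alone scatter. Rps14 alone is drawn for the male libraries only.

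Other genes of the translation apparatus were compared in the same way. Among 21 mRNAs with a known TOP motif other than ribosomal proteins, the median log2 ratio was 0.16 in the male and 0.05 in the female pair, and 0 passed the limma threshold. Eef1a1, which brings aminoacyl-tRNA to the ribosome, had 3381 (control) and 3799 FPKM (BPA) in males, and 3246 and 3459 FPKM in females. Eef2, which drives translocation, had 685, 778, 660 and 722 FPKM. Both had BPA above control without overlap, with limma adjusted p of 0.50 and 0.305. Eef1a2, the isoform that replaces Eef1a1 in mature neurons, had 99.5, 86.1, 101 and 86.7 FPKM and went the other way. Its log2 ratio was -0.21 ± 0.053 (SE, limma, adjusted p = 0.151). Vim, of the TOP list, had 122, 107, 126 and 83.5 FPKM and was also lower with BPA (log2 ratio -0.39 ± 0.115, SE, limma, adjusted p = 0.191). At an unadjusted p under 0.05, limma had 1 gene of the TOP list higher and 1 lower, against 5.31% and 12% of all transcripts.

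In the male and female pair, the 10 elongation factors had median log2 ratios of 0.11 and 0.03 and the 37 initiation factors 0.04 and 0.03. The 39 ribosome biogenesis genes had 0.12 and 0.06. These lists share genes with the TOP list, such as Eef1a1, Eef2, Eif3e and Eif4b, so their medians are not separate observations. None of the genes in these lists passed the limma threshold, and at an unadjusted p under 0.05 there were 0 higher and 1 lower elongation factors, 2 and 2 initiation factors, and 4 and 0 biogenesis genes, where 5.31% of all transcripts were higher and 12% lower. Nop56, a core protein of box C/D snoRNPs, had 55.7 (control) and 63.5 FPKM (BPA) in males, and 53.3 and 68.2 FPKM in females (log2 ratio 0.27 ± 0.065, SE, limma, adjusted p = 0.141). Of 18 tested genes from a list drawn up as mTOR and TOP regulators, 0 passed, with medians of 0.06 and -0.01. Larp1 and Rictor were planned for this list but were not found under those symbols, so they were not compared. Mtor itself had 26.9, 20.7, 23.5 and 22.2 FPKM, with both BPA libraries below both controls (limma, adjusted p = 0.289). Rps6kb2, an S6 kinase, had 5.33, 8.39, 5.57 and 9.02 FPKM (limma, adjusted p = 0.084).

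Other large sets of housekeeping genes were set beside the cytosolic ribosomal proteins. The 70 mitochondrial ribosomal proteins, which build the separate ribosome of mitochondria, had median log2 ratios of -0.05 in the male and -0.10 in the female pair. The 76 nuclear-encoded subunits of oxidative phosphorylation, also short mRNAs, had -0.05 in each, and the 35 proteasome subunits had -0.01 and 0.04. The limma fit called 0 genes in each of these sets. These differences between sets were not tested, since genes of a set share libraries.

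**Figure D5:**
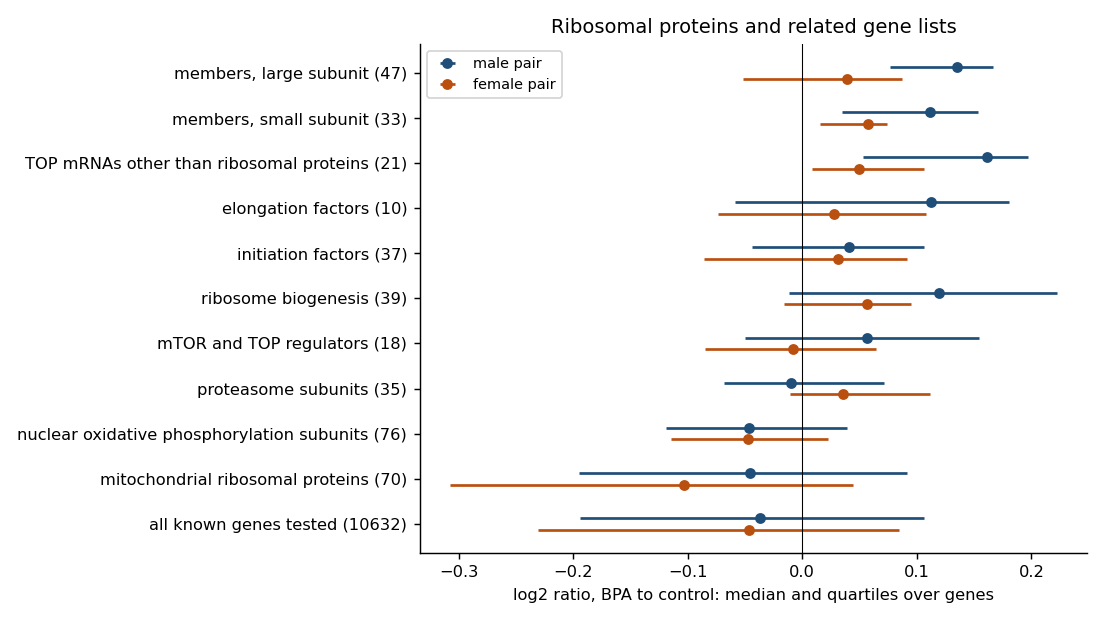
Median log2 ratio of BPA to control (points) with the quartiles over genes (bars) for both subunits and the related gene lists, in the male pair (blue) and female pair (orange), with the number of genes tested in brackets. The cytosolic subunits, TOP mRNAs and biogenesis genes lie above 0 in both pairs, and mitochondrial ribosomal proteins and oxidative phosphorylation subunits lie below.

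Cell type markers also differed between the treatments. The methods state that meninges were removed. The 10 markers of meninges and vessel wall summed to 479 (control) and 216 FPKM (BPA) in males, and 619 and 148 FPKM in females, and 7 of 10 were called lower with BPA by limma, Igf2 with a log2 ratio of -1.88 ± 0.129 (SE, adjusted p = 0.025). The 9 markers of cortical neurons summed to 2231, 2630, 2204 and 2474 FPKM, higher with BPA in both sexes. Most of this sum was Tubb3, at 1569, 1887, 1552 and 1768 FPKM. The median log2 ratio of the 9 was 0.17 in the male and 0.19 in the female pair. Neurod2 was called higher and Slc17a7 lower, and Bcl11b and Tbr1 were slightly lower in BPA female than in control female. The 11 markers of striatum and ganglionic eminence summed to 157, 208, 164 and 220 FPKM, with Penk and Rxrg called higher. The ganglionic eminence genes of that list did not follow the sum: Dlx1 had 29.64 and 21.68 FPKM in males and 29.29 and 23.42 in females, with both BPA libraries below both controls (log2 ratio -0.38, limma, adjusted p = 0.094), and Dlx2 had a log2 ratio of -0.11 (adjusted p = 0.632). The 9 progenitor markers summed to 196, 178, 205 and 151, the 9 blood markers to 1605, 1530, 1500 and 1248, the 5 astrocyte markers to 165, 130, 176 and 124, the 5 oligodendrocyte lineage markers to 93.99, 84.96, 104 and 87.5, and the 5 microglia markers to 20.02, 18.8, 22.3 and 14.1 FPKM. In these 5 lists no marker was called by limma at the adjusted threshold. At an unadjusted p under 0.05, limma had 4 of 5 astrocyte, 3 of 9 progenitor and 2 of 5 oligodendrocyte lineage markers lower. Of those tested, 1 of 6 blood and 1 of 4 microglia markers were lower, where 12% of all transcripts were. At that p 0 markers of these lists were higher, against 5.31% of all transcripts. The 5 choroid plexus markers stayed near 0, with sums of 0.53 to 1.82 FPKM, and Ttr, its defining marker, was listed only in the female libraries, at 0.35 and 0.01. The part of these markers in the small difference of the ribosomal protein genes was not tested.

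The depth was similar across libraries, with about 8952250 to 9256000 fragments recovered from the steps of the lowest FPKM values. A member had a median of 2526 to 2981 recovered fragments per library, so that counting error was small for the plateau and large for the tail. A single library per sex and treatment leaves library, litter and treatment inseparable within a pair.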

How the data were processed

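Frontal cortex RNA was selected with oligo(dT), sequenced on a HiSeq 4000 and mapped to rn6 with Bowtie 2 and RSEM (the labels also name HISAT); the authors deposited FPKM per transcript with 2 decimals, the lowest value being 0.01. Depth was recovered from the steps of scarce values (78.4 to 80.2% within 0.1 of a whole fragment, length offset 60 bases) and checked on simulated data, and counting intervals (95%) cover counting error only. Transcripts listed in all 4 libraries with a mean FPKM of at least 1 (13163) entered limma 3.58.1 (R 4.3.3) on log2(FPKM + 0.5), treatment only, with a variance trend, 2 residual degrees of freedom and Benjamini-Hochberg adjustment. The fold on this scale understates the change of low genes. On simulated data with 200 changed transcripts, limma called 200, and 11 unchanged ones. Recovery of differences as small as those of most members was not tested. Members named were the 8 highest and 5 lowest by mean FPKM, the 5 highest and 5 lowest ratios among those with a mean of at least 5, paralog pairs, stalk, 5S-binding and ubiquitin-fusion genes, Rps19, and any called member; others, such as Rpl31 and Rpl13, were chosen after their values were seen. The members and gene lists were chosen with earlier results of these data known. Alternatives changed the filter, pseudocount, scaling, block and libraries. Summing of entries with the same protein was chosen after seeing the data. Promoters were RefSeq's first entry per gene.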

Additional observations from a re-analysis of the deposited data

Results flagged for a closer look

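The log2 ratios of Rpl3 and Rps28 were opposite in the male and female pair, each with a 95% counting interval that did not include 0. Rpl3 had 0.077 in the male and -0.049 in the female pair. Rps28 had 1.55 and -0.58 on 32.3 to 96.6 recovered fragments, and its own entry held a small part of the FPKM annotated with its protein. The difference between the sexes was not tested, since 1 library per sex and treatment leaves no residual spread.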

How the results depend on the processing

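In 16 refits with another filter, pseudocount, scaling, variance prior, block or set of libraries, limma called 0 members. Sex as replicate block also gave 0, beside 86 of 13163 transcripts. It had 24 members at an unadjusted p under 0.05, and the share of all transcripts at that p was not taken. The block with known genes only, chosen after seeing the data, called 6 of 80 members beside 876 of 10632 genes. These 6 were Rpl37a, Rps4x, Rps29, Rpl7a, Rpl31 and Rpl13. Deviations from the treatment means in libraries of the same sex had a correlation of 0.03 over 13163 transcripts and -0.36 over the 80 members. Over the 69 with a mean of at least 100 FPKM it was -0.09. This measure across genes leaves out the shift between male and female libraries shared by nearly all members. The median of the members stayed above 0 in both pairs under 3 other scalings, a pseudocount of 5 and 3 other choices of members, and centring on known genes moved the female median to 0.11. Leaving out single libraries, also chosen after seeing the data, gave members' medians between 0.012 (without BPA male) and 0.17 (without BPA female). The size thus rested on single libraries, and each such value also holds part of the difference between male and female libraries. The number of transcripts called ranged from 0 to 104 of 13163 over pseudocounts, scalings, trend and left-out libraries, against 74, and was 0 without a filter and 477 of 10632 with known genes only. Of 32 named members, 19 kept their direction without any single library, and the lowest adjusted p of a named member when centred, with a pseudocount of 5 or without a library was 0.134. The other 13 changed sign, the cause not being tested, with ranges of -0.044 to 0.19 (Rpl11), -0.21 to 0.071 (Rpl22l1), -0.058 to 0.076 (Rpl26), -0.061 to 0.089 (Rpl3), -0.13 to 0.079 (Rpl36a, and 0.024 when centred), -0.19 to 0.058 (Rpl36al), -0.065 to 0.10 (Rpl41), -0.0077 to 0.26 (Rpl7), -0.011 to 0.19 (Rplp0), -0.043 to 0.17 (Rplp1), -0.068 to 0.48 (Rps15a), -0.056 to 0.13 (Rps27a) and -0.30 to 1.27 (Rps28).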
